A study of Mus musculus with 52 samples.

Results

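Kidneys of NZB/W-F1 mice were compared between 6 months and 1 month of age, the last and the first age sampled, across 14373 genes. NZB/W-F1 mice are the daughters of New Zealand Black mothers and New Zealand White fathers, and they develop a lupus-like disease with kidney inflammation. The libraries compared were taken by their labels: the 3 NZB/W-F1 kidney libraries labelled 6 months and the 3 labelled 1 month, of 18 kidney libraries and 52 libraries in the study. Each age had 3 hybrids, labelled female. The p-values rest on the spread between mice within groups, estimated over all 18 kidney libraries. At 1 month the hybrids had not reached puberty. At 6 months they were at the nephritic stage, with proteinuria above 200 mg/dl on 3 successive days. Kidneys of female C57BL/6 mice of the same ages, a strain used as healthy control, gave 3 libraries per age and served as the age comparison. The NZB/W-F1 kidneys at 3 months, labelled as before autoimmunity, are given as the step in between. All mice were labelled female and were perfused with PBS, and each library was total RNA of whole kidney. The groups therefore differ in age and puberty as well as in disease, and these cannot be told apart within NZB/W-F1. The NZB/W-F1 libraries at 1 and 6 months and the C57BL/6 libraries at 6 months lie in the same stretch of sample numbers. The C57BL/6 libraries at 1 month and all 3-month kidney libraries lie in a later stretch. In C57BL/6, and so in the strain difference, age cannot be told apart from this split in numbering, whose effect was not tested.

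In lupus, B cells and the plasma cells made from them secrete antibodies against the body's own nuclear material. Antibody complexes that lodge in the glomerulus, the filter of the nephron, bind complement and Fc receptors and draw in macrophages and T cells. The kidney also matures over these months: tubule transporters and enzymes that depend on sex hormones change between weaning and adulthood.

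Libraries held 5456869 to 16820529 reads in genes. In the compared groups these were 5778679, 12008500 and 16820529 at 1 month and 9605243, 9241576 and 10275039 at 6 months. Values are CPM, the reads of a gene per 1000000 reads as the authors scaled them, and 3 reads are worth 0.136 to 0.402 CPM. The kidney label held: Lrp2, the megalin receptor of the proximal tubule, stood at 1578, 1515 and 3810 CPM at 1 month and at 1867, 1393 and 1917 CPM at 6 months. Some libraries stood apart. Replicate 1 at 1 month held RNA of liver, with albumin (Alb) at 5556 CPM against 0.756 and 1.95 CPM in its fellows, and of adrenal gland, with Cyp11a1 at 480.0 CPM against 0.00 and 0.136 CPM. Replicate 1 at 3 months also held Cyp11a1, at 585.0 CPM. Replicate 3 at 6 months, labelled female, held Xist, the RNA that silences an X chromosome in females, at 1.38 CPM, against 274 to 524 CPM in the other 17 kidney libraries. Fat cell markers summed to 2468, 1005 and 199 CPM at 1 month and to 474, 597 and 786 CPM at 6 months.

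Of the 14373 genes tested, 345 rose and 120 fell between 1 and 6 months in NZB/W-F1 kidney (limma, adjusted p under 0.05), which is 2.4% and 0.835% of the genes and 3.24% together. The libraries of the 2 ages did not overlap in 8.36% of the genes with all 6-month values higher and in 6.67% with all lower. The median log2 fold change over all genes was 0.00. Leaving out the libraries that stood apart gave 561 calls without both libraries that held adrenal RNA, and 437 when replicate 3 at 6 months was left out as well. The count rests on the spread shared by all 18 kidney libraries: a limma fit on the 6 compared libraries alone called 43 genes, 37 of them higher at 6 months. In that fit 5 of 9 antibody constant genes and 2 of 21 macrophage genes rose. Ighg3 is among the 5, though it was admitted to the test only by its 6-month NZB/W-F1 values. Ighg1 and Iglc2, admitted the same way, were not called in that fit. Nor was any tested gene of the B cell, T cell, MHC class I, MHC class II, Fc receptor, complement, kidney injury, matrix, endothelial or cholesterol lists. The groups described for those lists therefore rest on the spread estimated over all 18 libraries. Without replicate 1 at 6 months the count was 305. The genes that rose were led by antibody genes, and macrophage, antigen-presentation and lymphocyte genes rose with them. Those that fell were led by secreted, tubule, collagen and cholesterol genes.

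**Figure D1:**
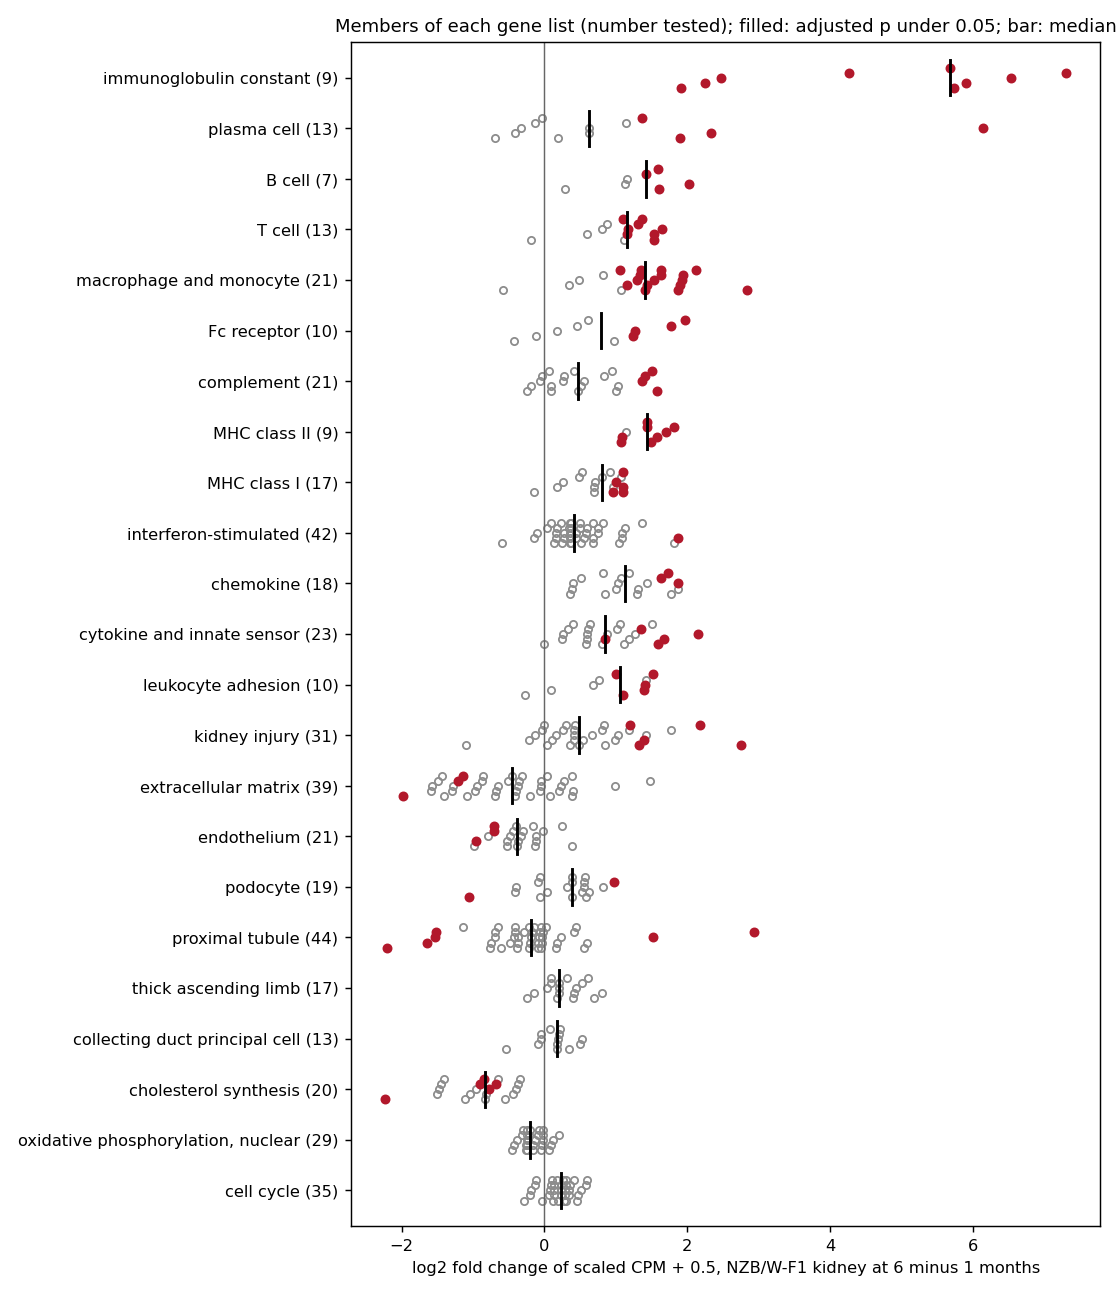
Each point is 1 tested member of a gene list, placed by its log2 fold change (scaled CPM + 0.5, NZB/W-F1 kidney, 6 minus 1 months, 3 libraries per age). Filled points had a limma adjusted p under 0.05 and the black bar is the list's median: all 9 antibody constant genes lie above 1.9, of which 3 were admitted to the test only by their 6-month values, while all 20 cholesterol synthesis genes lie below 0.

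Antibody genes rose most. Of 12 immunoglobulin constant genes listed, 9 were tested. Of these, 6 passed the filter on low values through libraries other than the NZB/W-F1 kidneys at 6 months. All 6 rose, against 2.4% of all genes, with a median log2 fold change of 5.79 against 0.00 over all genes. The other 3, Ighg1, Ighg3 and Iglc2, passed the filter only through those kidneys and so had to be higher there. They rose too, and their values are given as a description. In bulk tissue, more cells of a type and more RNA per cell cannot be told apart.

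Igkc, the constant region of the kappa light chain that most mouse antibodies carry, stood at 3.28, 3.78 and 4.27 CPM at 1 month and at 273, 553 and 404 CPM at 6 months. Every 6-month library lay far above every 1-month library. The log2 fold change was 6.53 with a standard error of 0.35 (limma adjusted p = 4e-08). Jchain, which joins antibodies into dimers and pentamers, went from 1.26, 0.64 and 1.32 CPM to 68, 133 and 141 CPM, a log2 fold change of 6.14 (limma adjusted p = 9.6e-08). Igha, the heavy chain of IgA, went from 1.64, 1.45 and 7.40 CPM to 139, 231 and 219 CPM, and the groups did not overlap (log2 fold change 5.90, limma adjusted p = 1.4e-06).

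The IgG heavy chains, the class that enters tissue from blood and binds Fc receptors and complement, were nearly absent at 1 month. Ighg2c was at 0.126, 0.116 and 0.0454 CPM at 1 month, which is under 3 reads in each library, and at 52.6, 137 and 115 CPM at 6 months. It had the largest fitted log2 fold change among the genes that met the naming rule, 7.31 with a standard error of 0.65 (limma adjusted p = 1.2e-05). Ighg3 had 2 reads in the 3 libraries at 1 month and 1209 at 6 months, a ratio of 712 after scaling, with an exact 95% counting interval of 197 to 5882. Its 6-month libraries held 34.7, 40.8 and 17.1 CPM. Ighg2b rose from 0.253, 0.0582 and 0.0908 CPM to 12.8, 67 and 36.8 CPM (log2 fold change 5.68, limma adjusted p = 6.1e-06). Ighg1 differed among the 6-month kidneys: replicates 1 and 2 held 32.4 and 25.1 CPM and replicate 3 held 0.826 CPM, against 1 read in all 3 libraries at 1 month (log2 fold change 4.27, limma adjusted p = 0.0074). Ighm, the IgM heavy chain of B cells and early antibody responses, was present from the start, at 13.8, 14.1 and 9.13 CPM, and rose to 43.8, 106 and 45.0 CPM (log2 fold change 2.25, limma adjusted p = 0.00045).

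**Figure D2:**
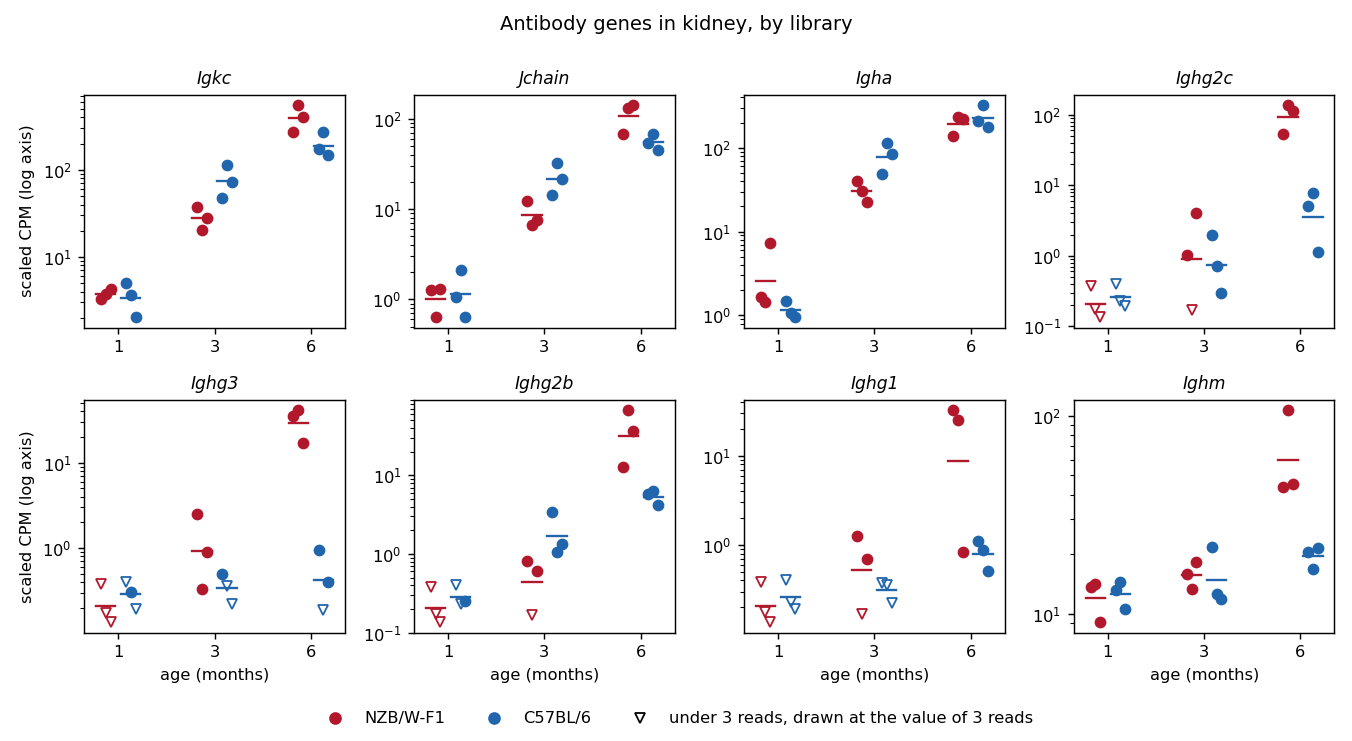
Scaled CPM (log axis) of 8 antibody genes in each kidney library against age in months, NZB/W-F1 in red and C57BL/6 in blue; open triangles are libraries under 3 reads, drawn at the value of 3 reads, and bars are geometric means over 3 libraries with such values at that floor. Igkc, Jchain and Igha climb in both strains, while the NZB/W-F1 libraries at 6 months hold 17.1 to 40.8 CPM of Ighg3 and those of C57BL/6 at most 0.957 CPM.

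The course differed between the antibody classes. At 3 months the NZB/W-F1 kidneys already held 37.2, 20.5 and 28.3 CPM of Igkc and 39.8, 30.2 and 22.7 CPM of Igha. Ighg2c stood at 1.04, 0.112 and 4.11 CPM at that age, and Ighg3 at 2.52, 0.335 and 0.901 CPM. C57BL/6 kidneys gained the same light chain, J chain and IgA: Igkc rose there by 5.61 (limma adjusted p = 4.5e-08), Jchain by 5.04 (limma adjusted p = 2.9e-07) and Igha by 7.12 (limma adjusted p = 4.1e-08), all on the log2 scale. The test of the difference between the strains did not pass for Igkc (0.93, limma adjusted p = 0.29), Jchain (1.11, limma adjusted p = 0.22) or Igha (-1.22, limma adjusted p = 0.27). It passed for Ighg2c and Ighm, 2 of the 6 constant genes that passed the filter through other libraries, where 1.59% of all genes had a larger change in NZB/W-F1. Ighg3 entered the test only because of the 6-month NZB/W-F1 kidneys, so its difference of 5.23 (limma adjusted p = 0.00028) is a description: the C57BL/6 libraries at 6 months held 0.957, 0.126 and 0.406 CPM. Ighg2c rose by 4.54 more (limma adjusted p = 0.014), a call that edgeR on the recovered reads did not make (adjusted p = 0.37), nor DESeq2 (adjusted p = 0.063). Ighm rose by 1.64 more (limma adjusted p = 0.042). Leaving out single libraries ended the call for Ighm in 8 cases, with adjusted p of 0.055 to 0.13, and for Ighg3 and Ighg2c in none.

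The plasma cell list rose in part. Of 12 members that passed the filter through other libraries 3 rose and none fell, against 2.4% and 0.835% of all genes, with a median of 0.40. Pou2af1, a B lineage cofactor of transcription, rose as well, by 2.34, but passed the filter only through the 6-month NZB/W-F1 kidneys. The 3 were Jchain, Mzb1, an endoplasmic reticulum chaperone of antibody-secreting cells, and Slamf7, a surface receptor. Mzb1 stood at 1.14, 1.16 and 0.954 CPM at 1 month and 3.5, 6.45 and 6.82 CPM at 6 months (log2 fold change 1.89, limma adjusted p = 0.0018). The groups did not overlap, and the change was larger in NZB/W-F1 than in C57BL/6 by 2.08 (limma adjusted p = 0.013). Sdc1, Xbp1 and Prdm1, which plasma cells share with tubule or other cells, had log2 fold changes of 0.18, -0.03 and -0.41, with limma adjusted p of 0.66, 0.95 and 0.49.

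B cell genes were low throughout and higher at 6 months. Of 6 members that passed the filter through other libraries, of 13 listed, 3 rose, against 2.4% of all genes. Among the 3 were Ms4a1, which encodes CD20, and Cd22. Spib, a transcription factor, rose by 1.6 and passed the filter only through the 6-month NZB/W-F1 kidneys. The list summed to 6.44, 9.54 and 5.31 CPM at 1 month and to 19.2, 25.1 and 21.8 CPM at 6 months, so the groups did not overlap. Ms4a1 went from 0.253, 0.349 and 0.0454 CPM to 1.27, 3.14 and 3.10 CPM (log2 fold change 2.02, limma adjusted p = 0.0068), and the change exceeded that in C57BL/6 by 3.15 (limma adjusted p = 0.0046). The count of 4 with Spib fell to 2 without 1-month replicate 1, without 6-month replicate 2 or without 6-month replicate 3.

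T cell genes rose in 8 of 13 tested members of 23 listed, with a median of 1.16, against 2.4% of all genes. Cxcr3, a receptor that guides T cells to interferon-induced chemokines, went from 0.632, 1.11 and 0.590 CPM to 3.65, 4.30 and 2.55 CPM (log2 fold change 1.65, limma adjusted p = 0.0036). Cd4, the co-receptor of helper T cells also present on some macrophages, went from 1.90, 2.15 and 1.45 CPM to 6.34, 6.45 and 3.51 CPM (1.31, limma adjusted p = 0.015). For both genes every 6-month library was above every 1-month library. Cd3d, Cd3g, Cd247, Cd2, Trbc2 and Cxcr6 rose as well, by 1.10 to 1.54. Cd3e had a log2 fold change of 1.11 (limma adjusted p = 0.19), and Cd8a, the co-receptor of cytotoxic T cells, had -0.19 (limma adjusted p = 0.87). The count of 8 dropped to 1 without 1-month replicate 3, to 3 without 6-month replicate 1, and to 4 without either of the other 6-month replicates. In 0 of the 13 T cell genes did the change differ between the strains past the threshold by limma, edgeR or DESeq2, and 3 had an unadjusted p under 0.05.

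Macrophage and monocyte genes rose in 16 of 21 tested members of 25 listed, against 2.4% of all genes, with a median log2 fold change of 1.41. All 21 passed the filter through other libraries. Itgam, the integrin CD11b of myeloid cells, stood at 0.884, 0.756 and 0.363 CPM at 1 month and at 3.58, 16.7 and 7.30 CPM at 6 months. Replicate 2 was highest, and the lowest 6-month library was 4 times above the highest at 1 month. The log2 fold change was 2.84 with a standard error of 0.37 (limma adjusted p = 0.00045), and it exceeded that in C57BL/6 by 2.52 (limma adjusted p = 0.016). Itgax, the integrin CD11c of dendritic cells and some macrophages, rose by 2.12 (limma adjusted p = 0.00045). Lyz2, which encodes lysozyme, went from 63.4, 51.1 and 25.0 CPM to 174, 188 and 133 CPM (1.90, limma adjusted p = 0.0022). Ctss, a lysosomal protease that trims the MHC class II chaperone, rose by 1.93 (limma adjusted p = 0.0012), and Adgre1, which encodes the macrophage antigen F4/80, by 1.3 (limma adjusted p = 0.0017). Trem2, a lipid-sensing receptor, rose by 1.87, and Ccr2 and Cx3cr1, chemokine receptors of monocytes, by 1.34 and 1.06. Cd163 and Mrc1, markers of resident scavenging macrophages, had log2 fold changes of -0.58 and 0.49 with limma adjusted p of 0.68 and 0.61. Without single libraries the count of 16 ranged from 11 to 17. In C57BL/6, 2 of the 21 genes rose between the same ages. The strain difference passed for 1, Itgam, where 1.59% of all genes had a larger change in NZB/W-F1. None of 3 tested neutrophil genes passed with limma, edgeR or DESeq2, while 2 had an unadjusted p under 0.05. The groups of S100a9 overlapped, at 3.03, 0.524 and 0.454 CPM at 1 month and 0.746, 0.662 and 0.895 CPM at 6 months.

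**Figure D3:**
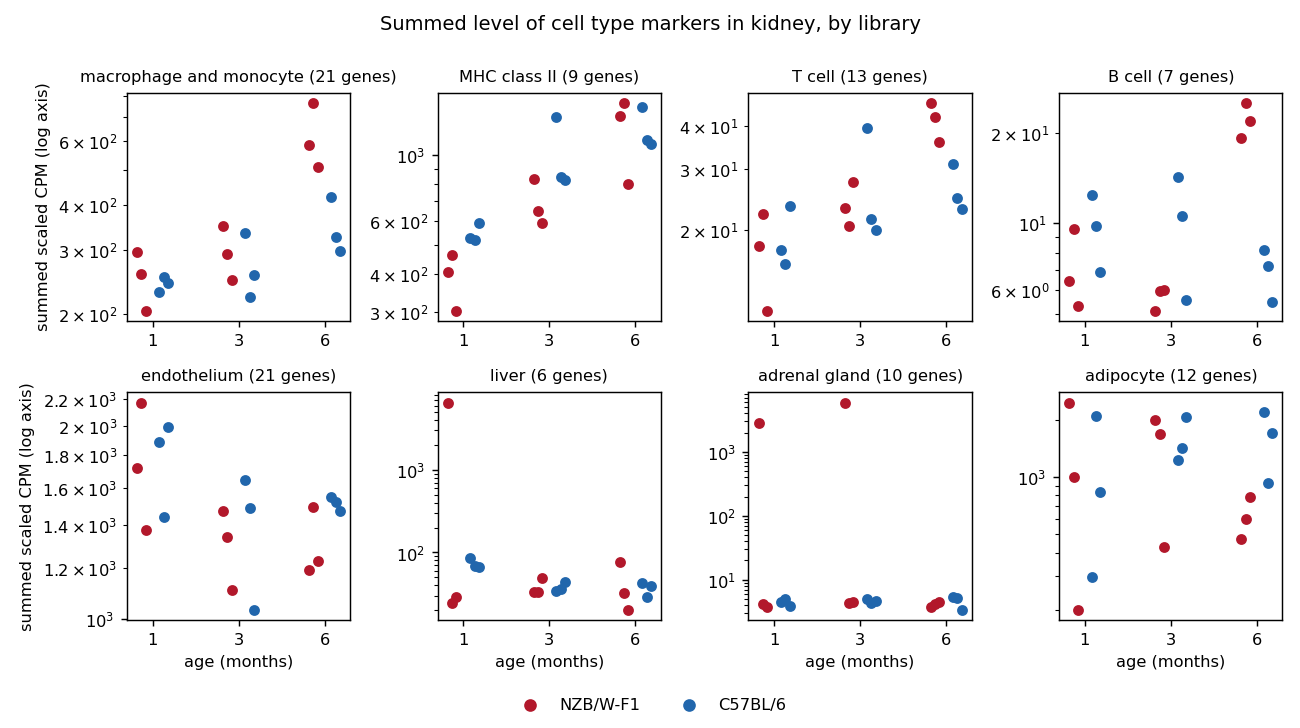
Summed scaled CPM (log axis) of the members of 8 marker lists in each kidney library against age in months, NZB/W-F1 in red and C57BL/6 in blue, 3 libraries per age and strain. The macrophage sum is 203 to 297 CPM at 1 month and 507 to 762 CPM at 6 months in NZB/W-F1, and the liver and adrenal sums each show the 1-month library that stood apart.

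Fc receptors and complement are the partners of deposited antibody. Of 10 Fc receptor genes 4 rose: Fcgr4, Fcgr3 and Fcgr1, activating receptors for IgG, and Fcer1g, the signalling chain they share. Fcgr4 went from 3.92, 2.68 and 1.18 CPM to 6.04, 17.5 and 11.6 CPM (log2 fold change 1.97, limma adjusted p = 0.0075). Its groups did not overlap, though replicate 1 at 6 months lay near the highest 1-month library. The inhibitory receptor Fcgr2b had 0.45 (limma adjusted p = 0.23). Without 1-month replicate 3 the count was 1. Of 21 tested complement genes 4 rose, namely C1qa, C1qb and C1qc, which form the complex that recognises bound antibody, and C3ar1, a receptor for a C3 fragment. C1qb went from 42.6, 31.8 and 18 CPM to 62.7, 148 and 72.7 CPM (1.58, limma adjusted p = 0.013). The complement count was 1 without 1-month replicate 3 or without 6-month replicate 2, and 7 without 1-month replicate 1. Over all genes 2.4% rose. The strain difference passed for none of the 21 by limma or edgeR and for 2 by DESeq2. C3 itself, which liver makes in quantity, was at 922, 47.3 and 13 CPM at 1 month and at 251, 153 and 48.6 CPM at 6 months (0.56, limma adjusted p = 0.88). Its highest value lay in the 1-month library that held liver RNA.

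Antigen presentation genes rose together. Of 9 tested MHC class II genes of 11 listed, 8 rose, against 2.4% of all genes, with a median of 1.44. All 9 passed the filter through other libraries. MHC class II molecules show peptides to helper T cells, and Ciita is the coactivator that drives their transcription. H2-Aa, the alpha chain of I-A, stood at 73.7, 68 and 45.1 CPM at 1 month and at 246, 264 and 152 CPM at 6 months. Every 6-month library was at least 2 times the highest 1-month library, and the log2 fold change was 1.81 with a standard error of 0.23 (limma adjusted p = 0.00033). H2-Eb1 rose by 1.7 (limma adjusted p = 0.00083), H2-Ab1 by 1.58 (limma adjusted p = 0.0025) and the chaperone Cd74 by 1.5 (limma adjusted p = 0.0023). Ciita itself was at 1.52, 3.55 and 3.18 CPM and then at 8.72, 8.6 and 6.61 CPM (1.44, limma adjusted p = 0.0031). H2-DMa, H2-DMb1 and H2-DMb2, which load peptides, rose by 1.08, 1.09 and 1.44. The exception was H2-Ob, with 1.14 (limma adjusted p = 0.076). The count was 5 without 6-month replicate 1. In C57BL/6, 5 of the 9 rose between the same ages, and the strain difference passed for none of the 9 by limma, edgeR or DESeq2, with 2 at an unadjusted p under 0.05. The promoters of this group are shown because its members moved together and share a known element, the Y box, whose core reads GATTGG or CCAATC on the other strand. In the 120 bases before the start, RefSeq promoters (GRCm38.p6) held the core in 5 of the 6 tested members that the table lists, and in 9.67% of all 32851 promoter entries of the same length. The entries below lie at chr17:34287824-34287943 on the minus strand, chr17:34305747-34305866 on the plus strand and chr17:34153071-34153190 on the plus strand. Capitals mark the core.
H2-Aa: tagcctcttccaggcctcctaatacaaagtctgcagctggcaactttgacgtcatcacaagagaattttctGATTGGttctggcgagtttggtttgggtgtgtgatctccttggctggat
H2-Eb1: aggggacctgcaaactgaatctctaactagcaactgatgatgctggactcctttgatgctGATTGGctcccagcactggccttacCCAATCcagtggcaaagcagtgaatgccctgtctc
H2-DMb1: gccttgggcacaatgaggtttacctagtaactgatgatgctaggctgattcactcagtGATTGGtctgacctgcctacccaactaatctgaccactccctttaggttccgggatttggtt
The core began 49 bases before the start in H2-Aa, 60 and 35 in H2-Eb1 and 62 in H2-DMb1. H2-Ab1, Cd74 and Ciita are named only. H2-DMa, which also rose, had no match in this window, and a match is only a match of letters.

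MHC class I genes, which show peptides to cytotoxic T cells, rose in 5 of 17: H2-Q4, H2-Q6, H2-D1, H2-K1 and H2-Q7. H2-D1 went from 240.3, 233 and 163 CPM to 377, 495 and 358 CPM (log2 fold change 0.96, limma adjusted p = 0.015). These genes are near copies of each other and differ between strains, and reads of H2-Q6 could be shared with its neighbours, so single members are uncertain. The count was 0 without 1-month replicate 3, 2 without 6-month replicate 2 and 3 without 6-month replicate 1. Over all genes 2.4% rose. In C57BL/6, 2 of the 17 rose. The strain difference passed for none of them by limma or edgeR and for 1 by DESeq2.

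Of 42 interferon-stimulated genes, 1 passed the test, Cxcl10, a share equal to the 2.4% over all genes. With Cxcl10 counted, 39 of the 42 log2 fold changes were positive, with a median of 0.41, and in 14 every 6-month library was above every 1-month library, against 8.36% of all genes so placed. Isg15, Ifit1 and Irf7 had log2 fold changes of 0.17, 0.35 and 0.58, and none passed the test (limma adjusted p = 0.89, 0.62 and 0.44). Cxcl10, a chemokine that binds Cxcr3, went from 2.53, 2.39 and 1.77 CPM to 9.10, 9.18 and 9.91 CPM, a tight and separate pair of groups (1.87, limma adjusted p = 0.00019). Cxcl10 rose in C57BL/6 too, with limma adjusted p of 0.066 to 0.13 when some single libraries were left out. Of 15 chemokine genes that passed the filter through other libraries, Ccl5 rose as well, by 1.64, with adjusted p of 0.052 to 0.094 without 6-month replicate 1, 6-month replicate 2 or 1-month replicate 3. Ccl4, Ccl7 and Cxcl1 passed the filter only through the 6-month NZB/W-F1 kidneys, and Ccl7 rose there by 1.73. Without 1-month replicate 1 the count of chemokine genes was 6 of 18, not 3. In C57BL/6, 4 of the 18 rose. The strain difference passed for none of the 18 by limma or edgeR and for 2 by DESeq2. Of 23 tested cytokine and innate sensor genes 5 rose. Il1b, an inflammatory cytokine, went from 1.52, 0.989 and 1.36 CPM to 8.95, 5.46 and 8.26 CPM (2.15, limma adjusted p = 0.0026). Tlr7, an X-linked sensor of single-stranded RNA, went from 1.01, 1.22 and 0.818 CPM to 2.83, 5.95 and 4.61 CPM (1.67, limma adjusted p = 0.0075). Its change was larger than in C57BL/6 by 1.94 (limma adjusted p = 0.028, and 0.064 to 0.097 without any one of 6 libraries: NZB/W-F1 6-month replicate 3 and 1-month replicate 3, and C57BL/6 6-month replicates 2 and 3 and 1-month replicates 2 and 3). Without replicate 3 at 6 months and both libraries that held adrenal RNA, the limma adjusted p for the rise of Tlr7 was 0.052. For its strain difference it was 0.055. Csf2rb and Il10ra, a shared chain of cytokine receptors and the interleukin-10 receptor, rose by 1.59 and 1.35. Tlr2, a sensor of bacterial lipids, had 0.85 (limma adjusted p = 0.045), a call lost without any single library other than 6-month replicate 2 (adjusted p 0.063 to 0.21), with median-of-ratios scaling (0.051) and with a pseudocount of 0.1 (0.056). Of 10 tested leukocyte adhesion genes 5 rose, namely Itgb2, Vcam1, Itga4, Itgal and Icam1, against 2.4% of all genes. Itgb2 and Icam1 rose in C57BL/6 too, and the strain difference passed for 1 of the 10.

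Genes known from injured tubules rose in 5 of 31, against 2.4% of all genes. Lcn2, a secreted iron carrier used as an injury marker, stood at 3.92, 3.96 and 1.77 CPM at 1 month and at 42.5, 31.1 and 9.71 CPM at 6 months. The groups did not overlap, and replicate 3 was the lowest of the 6-month libraries (log2 fold change 2.76, standard error 0.57, limma adjusted p = 0.011). Without 6-month replicate 1 the adjusted p was 0.067, and without 1-month replicate 3 it was 0.053. Spp1, osteopontin, went from 1293, 1269 and 1129 CPM to 5399, 3958 and 1357 CPM, where again replicate 3 lay near the 1-month level (1.32, limma adjusted p = 0.046). The call for Spp1 was kept without 6-month replicate 3 and lost without any other single library (adjusted p 0.072 to 0.22). Vcam1, a leukocyte adhesion molecule that injured tubules also make, rose by 1.39 and Tnfrsf12a, the TWEAK receptor, by 1.20. Havcr1, the tubule injury marker KIM-1, was at 83.3, 54.5 and 134 CPM and then at 176, 53.3 and 41.5 CPM (-0.21, limma adjusted p = 0.89). The injury count was 1 without 1-month replicate 3, 2 without 6-month replicate 1 and 2 without 6-month replicate 2. It was 11 without replicate 3 at 6 months and both libraries that held adrenal RNA. The strain difference passed for none of the 31 by limma, for 1 by edgeR and for 3 by DESeq2. In C57BL/6, 1 of the 31 rose.

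Among the genes that met the naming rule the largest fall was in Serpina6, which encodes corticosteroid-binding globulin, a carrier of glucocorticoids in blood. It stood at 345, 430 and 208 CPM at 1 month, at 68.8, 45.2 and 34.9 CPM at 3 months and at 17.9, 14.8 and 30.2 CPM at 6 months. The decline was present in every library, and the level at 1 month was 15.3 times that at 6 months (log2 fold change -3.94, standard error 0.43, limma adjusted p = 8e-05). In C57BL/6 it fell further, from 353, 194 and 152 CPM to 0.752, 0.821 and 0.102 CPM. The NZB/W-F1 kidneys kept more of it, a strain difference of 3.84 (limma adjusted p = 0.0028). Slc7a13, an amino acid transporter of the late proximal tubule, fell from 6.57, 9.25 and 7.81 CPM to 1.94, 1.16 and 0.964 CPM (-2.20, limma adjusted p = 2.9e-05), and by 3.06 in C57BL/6 (limma adjusted p = 2e-07). Serpina1d, an antitrypsin gene, fell by 2.65 (limma adjusted p = 0.0059), from 59.4, 9.77 and 12.4 CPM to 2.53, 2.4 and 3.17 CPM. Its highest value was in the library with liver RNA, and its reads are uncertain because 58.3% of the short sequence words of its exons occur in other genes.

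Proximal tubule genes rose in 2 and fell in 4 of 44, against 2.4% and 0.835% of all genes. The 4 were Slc7a13, Slc5a2, Slc34a3 and Slc7a8. Slc5a2, the glucose transporter SGLT2 of the early proximal tubule, went from 107, 153 and 230 CPM to 32.6, 78.0 and 47.5 CPM (log2 fold change -1.64, limma adjusted p = 0.040). Slc34a3, a phosphate transporter, fell by 1.52 (limma adjusted p = 0.020) and Slc7a8, an amino acid transporter, by 1.53 (limma adjusted p = 0.016). Both genes that rose code for a transporter or an enzyme. Slc13a1, a sulfate transporter, went from 92.1, 96.2 and 138 CPM to 488, 216 and 272 CPM (1.52, limma adjusted p = 0.0075). Cyp4b1, a cytochrome P450 enzyme, went from 21.6, 31.7 and 35.3 CPM to 441, 104 and 247 CPM, with 161, 104 and 173 CPM at 3 months. Its change exceeded that in C57BL/6 by 2.83 (limma adjusted p = 0.023), with adjusted p of 0.053 to 0.08 without any one of 5 libraries, NZB/W-F1 6-month replicates 1 and 3 and C57BL/6 6-month replicate 2 and 1-month replicates 1 and 3. The abundant markers Lrp2, Cubn and Slc34a1 did not pass, with log2 fold changes of -0.29, -0.05 and -0.77 (limma adjusted p = 0.76, 0.97 and 0.30). The count of 4 that fell was 1 without 6-month replicate 1, without 6-month replicate 3 or without 1-month replicate 3, and 2 without 1-month replicate 2.

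**Figure D4:**
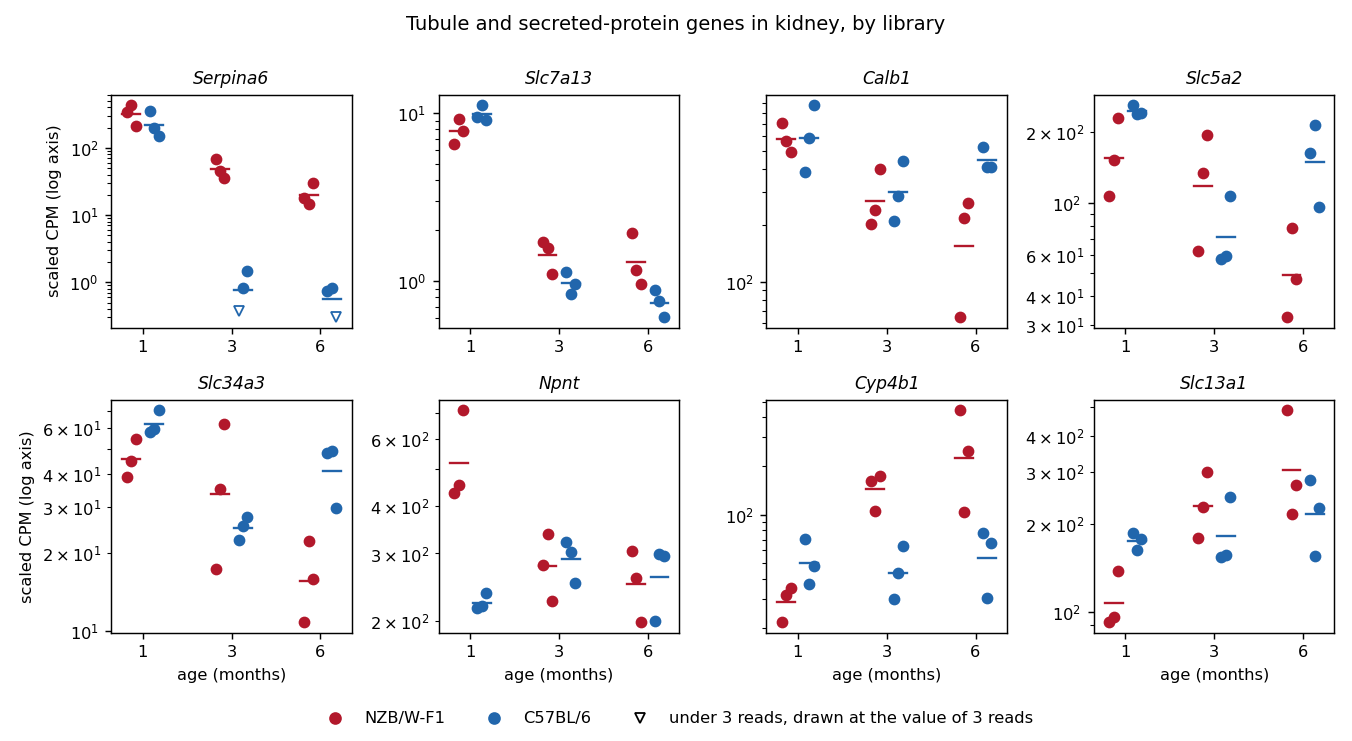
Scaled CPM (log axis) of 8 tubule, secreted-protein and matrix genes in each kidney library against age in months, NZB/W-F1 in red and C57BL/6 in blue; open triangles are libraries under 3 reads, drawn at the value of 3 reads, and bars are geometric means over 3 libraries with such values at that floor. Serpina6 falls from 208 to 430 CPM at 1 month to 14.8 to 30.2 CPM at 6 months in NZB/W-F1, and Cyp4b1 rises from 21.6 to 35.3 CPM to 104 to 441 CPM.

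Genes of calcium and phosphate handling fell in 3 and rose in 1 of 20, against 0.835% and 2.4% of all genes. Calb1, calbindin, the calcium buffer of the distal tubule, went from 705, 566 and 492 CPM to 64.9, 219 and 263 CPM, and the groups did not overlap (log2 fold change -1.90, limma adjusted p = 0.022). The call for Calb1 was lost when 6-month replicate 1 (adjusted p = 0.09) or either of 1-month replicates 1 and 2 (0.065 and 0.058) was left out. S100g, a second calbindin, had -1.32 (limma adjusted p = 0.05, just under the threshold before rounding). Its groups overlapped, since 1-month replicate 3 held 339 CPM and 6-month replicate 2 held 344 CPM. Trpv6, a calcium channel, rose by 0.91 (limma adjusted p = 0.031), and the call was lost without 6-month replicate 1 (0.17), 6-month replicate 2 (0.06), 1-month replicate 1 (0.088) or 1-month replicate 3 (0.092). Cyp24a1, which breaks down active vitamin D, was at 26.3, 13.4 and 21 CPM and then at 462, 25.8 and 68.9 CPM. Replicate 1 alone was high, and the test did not pass (2.24, limma adjusted p = 0.19). In C57BL/6, 2 of the 20 fell, S100g among them. The strain difference passed for none of the 20 by limma or edgeR and for 1 by DESeq2. In NZB/W-F1 the count of 3 fell to 0 without 6-month replicate 1 or 1-month replicate 2, and to 1 without 6-month replicate 3 or 1-month replicate 1. Of 17 distal convoluted tubule markers Calb1 alone passed. By limma none passed of 17 for the thick ascending limb, 13 for the collecting duct principal cell and 16 for the intercalated cell, where 1, 0 and 4 had an unadjusted p under 0.05. edgeR called none of them and DESeq2 called 1, an intercalated cell gene.

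In the glomerulus, Nphs1, which encodes the slit protein nephrin, had a log2 fold change of 0.82 (limma adjusted p = 0.20). Of 19 tested podocyte genes, Ptpro, a podocyte phosphatase, rose by 0.98 (limma adjusted p = 0.015). Npnt, a matrix protein of the glomerular basement membrane, fell from 432, 453 and 712 CPM to 304, 258 and 198 CPM (-1.05, limma adjusted p = 0.011). Both differed from C57BL/6, by 1.34 and -1.28 (limma adjusted p = 0.023 and 0.033), and each of these calls was lost without some single libraries. In NZB/W-F1 leaving out 6-month replicate 1 ended the call for Ptpro, leaving out 6-month replicate 3 that for Npnt, and leaving out 1-month replicate 3 both (adjusted p 0.052 to 0.09). Endothelial genes fell in 3 of 21, against 0.835% of all genes, with a median of -0.38. Kdr, the receptor VEGFR2, went from 110, 105 and 74.0 CPM to 38.5, 57.6 and 51.4 CPM, with no overlap (-0.96, limma adjusted p = 0.0042). Cdh5 and Tie1 each fell by 0.71, while Pecam1 had -0.16 (limma adjusted p = 0.65). A single gene of the list passed when one of 1-month replicates 1 and 2, or one of 6-month replicates 1 and 3, was left out. In C57BL/6, 1 of the 21 fell, with a median of -0.23. The strain difference passed for none of the 21 by limma or edgeR and for 1 by DESeq2.

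Matrix genes did not rise. Of 39 tested, none rose and 3 fell, against 2.4% and 0.835% of all genes: Col4a1 and Col4a2, chains of basement membrane collagen, and Eln, elastin. All 3 fell in C57BL/6 too, where 5 of the 39 fell. There the calls for Col4a1 and Eln were lost without any one C57BL/6 library of these ages (limma adjusted p 0.072 to 0.14). The strain difference passed for none of the 39 by limma or edgeR and for 1 by DESeq2. Col4a2 went from 498, 508 and 417 CPM to 189, 330 and 136 CPM (-1.21, limma adjusted p = 0.0075), and it fell in C57BL/6 too, by 0.98 (limma adjusted p = 0.019). Eln went from 107, 69.5 and 27.8 CPM to 12.7, 27.0 and 9.02 CPM (-1.98, limma adjusted p = 0.018). The call for Eln was lost when either of 6-month replicates 1 and 3, or either of 1-month replicates 1 and 2, was left out (adjusted p 0.065 to 0.094). The fibrillar collagens Col1a1 and Col3a1 had -1.58 and -1.41 (limma adjusted p = 0.21 and 0.28). The number that fell was 11 without 1-month replicate 3, 8 without 6-month replicate 2, 1 without 6-month replicate 3, and 2 without any one of the other 3 libraries. Fibroblast and smooth muscle markers passed in none of 14 by limma, edgeR or DESeq2, with 1 at an unadjusted p under 0.05.

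Cholesterol genes were lower at 6 months. Of 20 tested 5 fell, against 0.835% of all genes, and none rose. The median was -0.84 against 0.00 over all genes. Mvd, an enzyme of the mevalonate pathway, went from 62.8, 58.6 and 59.8 CPM to 35, 36.3 and 26.3 CPM, with no overlap (-0.90, standard error 0.19, limma adjusted p = 0.013). Mvk, Nsdhl and Srebf2 fell by 0.85, 0.77 and 0.67. In C57BL/6 3 genes of the list rose instead. The strain difference passed for 3, all more negative in NZB/W-F1, against 2.09% of all genes. For Mvd it was -1.44 (limma adjusted p = 0.0082). The count was 0 without 6-month replicate 3, 1 without 6-month replicate 1, 2 without 1-month replicate 1, 3 without 1-month replicate 2 and 9 without 1-month replicate 3. It was also 0 without that 6-month library and both that held adrenal RNA.

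Energy metabolism and growth showed few calls. Angptl4, a lipase inhibitor induced by fatty acids, rose from 24.4, 13.5 and 9.90 CPM to 72.2, 85.8 and 70.5 CPM (2.31, limma adjusted p = 0.0016). Its change exceeded that in C57BL/6 by 1.95 (limma adjusted p = 0.044), a difference that passed only with 1-month replicate 1 of NZB/W-F1 left out among the single libraries. Acot2, a mitochondrial thioesterase, rose by 0.82 (limma adjusted p = 0.0096), and no other of 33 fatty acid oxidation genes passed. By limma none of 29 nuclear genes of oxidative phosphorylation and none of 35 cell cycle genes passed, with 4 and 3 at an unadjusted p under 0.05. edgeR called none of either, and DESeq2 called 1 and 0. Of the 29 log2 fold changes 4 were positive, with a median of -0.20. In 10 of the 29 every 6-month library was below every 1-month library, against 6.67% of all genes. The 29 summed to 11343.9 to 12370.5 CPM at 1 month and 9869.8 to 10826.3 CPM at 6 months. In C57BL/6 the sums were 11080.7 to 11734.9 CPM and 10384.5 to 10727.5 CPM. Mki67, a marker of dividing cells, stood at 20.0, 10.2 and 13.5 CPM at 1 month, at 4.90, 4.19 and 4.31 CPM at 3 months and at 24.7, 34.2 and 6.75 CPM at 6 months (log2 fold change 0.35, limma adjusted p = 0.78). The low point was therefore at 3 months, and replicate 3 at 6 months lay below the 1-month range. Of 20 circadian clock genes 1 rose and 1 fell, Nr1d2, a clock repressor, by 1.26 and Clock, the core activator, by 0.41. Leaving out 6-month replicate 1 or 6-month replicate 3 ended both calls. Of 26 antioxidant genes Gsta4, a glutathione transferase, rose by 0.77, and the call was lost without 6-month replicate 2 or 1-month replicate 3. Of 16 immediate early genes that passed the filter through other libraries Klf6 rose by 0.67, a call lost without 6-month replicate 1 or 1-month replicate 3, and Egr2, with 1.57, passed the filter only through the 6-month NZB/W-F1 kidneys. Tnfsf13b, the B cell survival factor BAFF, rose by 1.18 and Ltb, a lymphotoxin chain, by 1.14, the only calls among 7 tested genes of lymphoid tissue organisation (limma adjusted p = 0.025 and 0.024), and that count was 0 without 6-month replicate 2 or without 1-month replicate 3. Ltb rose in C57BL/6 too, a call lost when any one C57BL/6 library of these ages was left out (limma adjusted p 0.057 to 0.21). Of the remaining genes named by the rule, Cyp2a5, a cytochrome P450, rose by 2.81 (limma adjusted p = 0.0018), with uncertain reads since 54.6% of the short sequence words of its exons occur in other genes. Rdh19, a retinol dehydrogenase family member, fell by 2.28, Dpys, an enzyme of pyrimidine breakdown, by 2.27 and Insc, an adaptor of spindle orientation, by 2.20 (limma adjusted p = 0.0033, 0.00063 and 0.0012).

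To ask which changes differed from ageing in the control strain, the change in NZB/W-F1 was tested against that in C57BL/6. C57BL/6 kidneys changed in 942 genes, 547 higher (3.81%) and 395 lower (2.75%), or 6.55% of those tested (limma, adjusted p under 0.05). The change differed between the strains in 529 genes, or 3.68%, of which 228 (1.59%) were more positive in NZB/W-F1 and 301 (2.09%) more negative. Of the 345 genes that rose in NZB/W-F1, 57 rose in C57BL/6 too, which is 16.5% of the first list and 10.4% of the second. Of the 120 that fell, 24 fell in both, or 20% and 6.08%. Among the 345, the strain difference passed in the same direction in 75, and among the 120 in 35. The count of 529 depended on single libraries: it was 1261 without NZB/W-F1 1-month replicate 1, the library with liver and adrenal RNA, and 180 without C57BL/6 6-month replicate 2. It was 287 to 317 without 6-month replicate 1, 6-month replicate 3 or 1-month replicate 3 of NZB/W-F1, and 264 to 292 without C57BL/6 6-month replicate 3 or any one C57BL/6 library at 1 month.

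Several of these genes differed between the strains at 1 month and were close at 6 months. The 1-month C57BL/6 libraries lie in the later stretch of sample numbers and the other groups compared here in the earlier, so an effect of that split cannot be told apart. Cyp2a4, a steroid-hydroxylating cytochrome P450, stood at 37.0, 9.77 and 39.9 CPM in NZB/W-F1 and at 0.402, 0.383 and 0.384 CPM in C57BL/6 at 1 month. At 6 months the values were 325, 271 and 269 CPM and 207, 291 and 281 CPM. The rise was thus 3.53 in NZB/W-F1 and 8.18 in C57BL/6, a difference of -4.65 (limma adjusted p = 0.00013). Reads of Cyp2a4 are uncertain, since 58.1% of the short sequence words of its exons occur in other genes, chiefly Cyp2a5. Slc10a2, the sodium-dependent bile acid transporter, was at 118, 97.0 and 189 CPM in NZB/W-F1 and at 5.62, 6.27 and 10.7 CPM in C57BL/6 at 1 month. At 6 months the values were 82.4, 61.5 and 79.7 CPM and 112, 141 and 127 CPM (difference in change -4.84, limma adjusted p = 1.6e-06). Rnf24, a RING finger protein, and Prok1, a prokineticin hormone, had the same order, with differences of -5.96 and -4.97 (limma adjusted p = 7.7e-05 and 5.8e-05). Myh1, a myosin heavy chain of fast skeletal muscle, fell from 5.69, 7.10 and 6.99 CPM to 2.01, 1.07 and 1.03 CPM in NZB/W-F1. It had 0 reads in the C57BL/6 libraries at 1 month and 150 at 6 months, at least 44.9-fold higher against a floor of 3 reads over the group. The tubule transporter Slc22a7 and the steroid enzyme Akr1c18 belong to this group by their values. Their differences were -5.81 and -7.18 (limma adjusted p = 3e-07 and 0.00028), though their NZB/W-F1 groups overlapped.

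**Figure D5:**
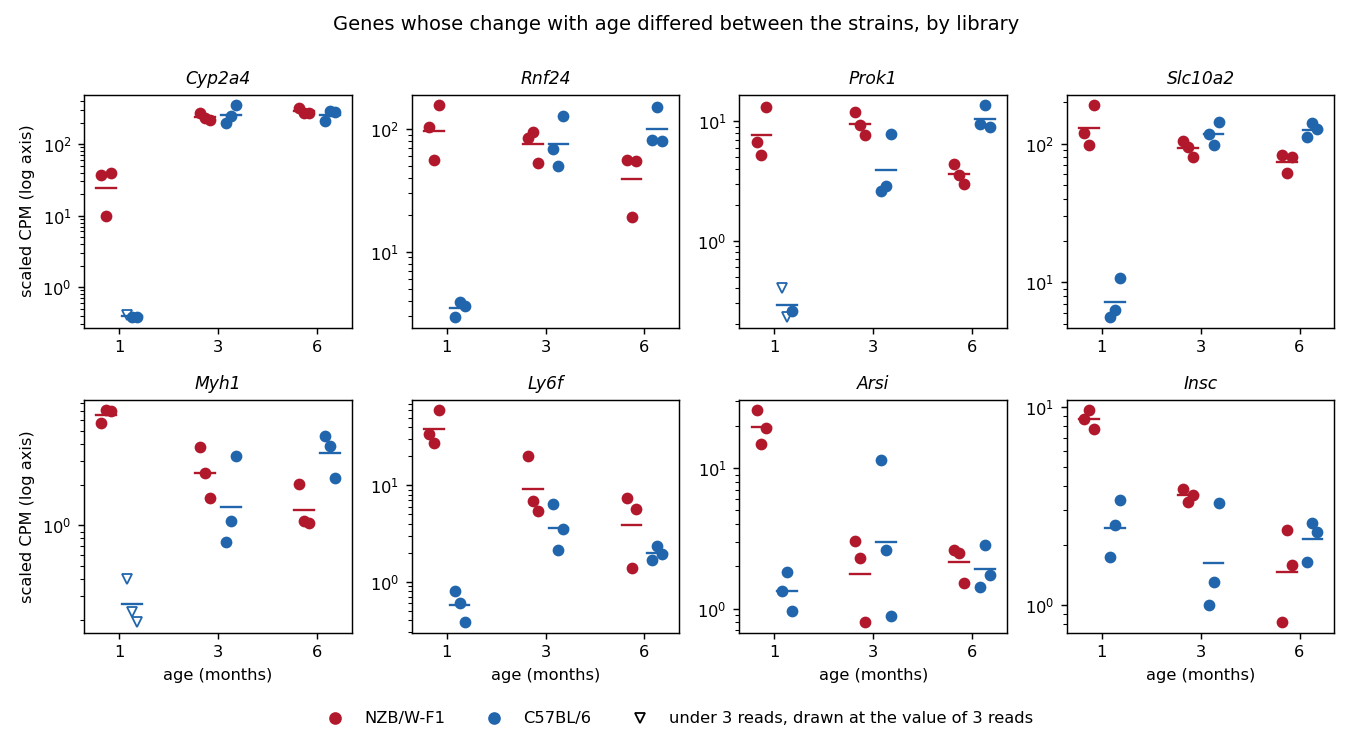
Scaled CPM (log axis) of 8 genes in each kidney library against age in months, NZB/W-F1 in red and C57BL/6 in blue; open triangles are libraries under 3 reads, drawn at the value of 3 reads, and bars are geometric means over 3 libraries with such values at that floor. At 1 month every NZB/W-F1 library lies above every C57BL/6 library in all 8 panels, for example Slc10a2 at 97.0 to 189 CPM against 5.62 to 10.7 CPM.

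Other genes were higher in the 1-month hybrids than in the 6-month hybrids. Ly6f, a member of the Ly6 surface protein family, went from 34.1, 27.5 and 59.8 CPM to 7.46, 1.41 and 5.65 CPM (-3.10, limma adjusted p = 0.0027), against 0.384 to 2.34 CPM in the C57BL/6 libraries of these ages. Arsi, an arylsulfatase, went from 25.8, 14.8 and 19.3 CPM to 2.61, 2.48 and 1.51 CPM (-2.91, limma adjusted p = 0.0075). Oxtr, the oxytocin receptor, was at 69.4, 4.07 and 7.54 CPM at 1 month, highest in the library with liver and adrenal RNA, and at 0.746, 1.99 and 1.10 CPM at 6 months. Its strain difference was -5.09 (limma adjusted p = 0.038), more than the fitted fall in NZB/W-F1, so the C57BL/6 change was upward. That difference stayed past the threshold without the library with liver and adrenal RNA (limma adjusted p = 0.033). It missed the threshold without NZB/W-F1 6-month replicate 1 or 3, C57BL/6 6-month replicate 2 or 3, or any one C57BL/6 library at 1 month, with adjusted p of 0.067 to 0.12. In the other direction, Clic6, a chloride channel family member, fell in C57BL/6 from 16.5, 13.3 and 13.4 CPM to 1.85, 0.442 and 1.12 CPM. In NZB/W-F1 it was low at both ages, at 0.758, 0.931 and 1.14 CPM and then 0.522, 0.331 and 0.207 CPM (difference 2.51, limma adjusted p = 0.0054). edgeR on the recovered reads did not call it (adjusted p = 0.089).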

How the data were processed

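Total RNA of whole kidney was extracted with TRIzol and made into libraries with the TruSeq RNA Sample Prep Kit v2, per the labels' protocols, which do not state strand. STAR 2.6, HTSeq and edgeR on mm10 are named in the submitters' processing notes. The authors deposited gene-level signal: scaled CPM whose column totals differ and have a geometric mean of 1000000, as trimmed-mean scaling gives. Whole reads were recovered from the step between low values (100% of values within 0.01 of a whole read). The 3 counter rows, 20.8% to 29.9% of reads, were left out. Of 14453 genes, 14448 matched GENCODE release 21 (GRCm38).

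Genes with at least 1 CPM in at least 3 libraries (14373) were tested with limma 3.58.1 (R 4.3.3, trend) on log2(CPM + 0.5) over all 18 kidney libraries with 6 group means, two-sided, Benjamini-Hochberg adjusted over all genes. A fold change on this scale understates the change of low genes. edgeR 4.0.16 quasi-likelihood and DESeq2 1.42.0 on the recovered counts, other scalings, pseudocounts, filters and left-out libraries were alternatives. The fit was tested on simulated data. Intervals cover counting error only. The series design gives 3 female mice per age.

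The members and the 47 gene lists were chosen with earlier results of these data known. Named genes met adjusted p under 0.05, a mean of at least 5 CPM in 1 group and no overlap between the NZB/W-F1 groups: the 12 largest changes in each direction, and 6 for the strain difference, passing over predicted genes, pseudogenes and antibody variable segments. Of those passed over, 3 ranked among the genes that rose, 1 among those that fell and 1 in the strain difference. List members were named up to 8 per list in order of p, and defining members whatever their p. Some genes that met these rules are not reported here.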

Additional observations from a re-analysis of the deposited data

Results flagged for a closer look

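The change from 1 to 6 months differed between NZB/W-F1 and C57BL/6 kidney in 529 genes by the strain-by-age test (limma, adjusted p under 0.05). The 12 genes named for it are given as the log2 fold change in NZB/W-F1 minus that in C57BL/6, each tested directly. It was more positive in NZB/W-F1 for Ighg3 (5.23), Ighg2c (4.54), Serpina6 (3.84), Cyp4b1 (2.83), Itgam (2.52) and Clic6 (2.51). It was more negative for Rnf24 (-5.96), Oxtr (-5.09), Prok1 (-4.97), Myh1 (-4.93), Slc10a2 (-4.84) and Cyp2a4 (-4.65). Ighg3 entered the test only through the 6-month NZB/W-F1 kidneys, where it is high, so its difference is a description. All 12 rested on 3 libraries per group, too few for a test of single outlying samples.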

How the results depend on the processing

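For NZB/W-F1, 465 genes passed with limma. DESeq2 passed 765 and a fit on the 6 compared libraries alone 43, which ended the call of 12 of the 24 genes that the naming rule picked for this comparison (among them Ighg1, Cyp4b1, Itgam, Cyp2a5, Lcn2, Ly6f, Serpina1d, Rdh19, Dpys, Eln and Calb1). Without single libraries the count ran from 305 to 524. For C57BL/6, 942 genes passed, 3011 in a fit on its 6 libraries alone and 351 to 683 without single libraries. For the strain difference, 529 passed, 1120 with DESeq2, 180 to 1261 without single libraries and 1259 without both libraries that held adrenal RNA, an alternative chosen after seeing the data. The replicate block gave 470, 904 and 515 calls. Same-numbered libraries correlated at -0.091, 0.058 and 0.171 in NZB/W-F1, so the numbers were not read as pairs. edgeR on the recovered reads passed 474, 911 and 510. Median-of-ratios scaling, other pseudocounts and no filter kept the 3 counts within 1.5 times. Among the genes picked by the naming rule, no called result reversed its direction in the settings run. Other called genes were not checked for this. Causes were not tested.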
